A study of Mus musculus with 18 samples.

Results

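The mir-99, mir-100, mir-125 and let-7e clusters are 3 groups of miRNA hairpins, each transcribed from a single stretch of a mouse chromosome. The miRNAs described here are the entries mmu-mir-99a, mmu-mir-99b, mmu-mir-100, mmu-mir-125a, mmu-mir-125b and mmu-let-7e, written without the species prefix from here on, which were taken by name from a table of read counts. They are 6 of the 1006 miRNA precursors counted, and 5 of the 273 that held enough counts to be tested. Small RNA was sequenced from Baf3, an established line of mouse pro-B cells that depends on interleukin-3. All cells carried fluorescent reporters for altered forms of miR-15a and miR-16 and had been transduced stably with Cas9 and a guide RNA, then selected with puromycin.

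Controls carried a guide against Rag1 (genotype label Rag1_KO), a gene with no part in miRNA biogenesis. The group called SAFB carried a guide against both Safb1 and Safb2, and the group called ERH a guide against Erh. Each genotype was made with 2 guides, and each of the 6 resulting populations gave 3 libraries labelled batch 1 to 3, so each genotype had 6 libraries. The populations were polyclonal. Per the labels, cells were sorted for derepression of the dsRed reporter of miR-15a and regrown. The labels do not say by what gate the controls were sorted. Small RNA libraries do not measure Rag1, Safb1, Safb2 or Erh mRNA, so the loss of the targets was not checked here. The 6 libraries of a genotype come from 2 edited populations, so the p-values below measure the spread among these libraries, which may be partly technical.

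A miRNA is cut in the nucleus from a hairpin of its primary transcript by the Microprocessor, the complex of Drosha and Dgcr8, and in the cytoplasm by Dicer. Several hairpins can lie on one primary transcript, and they are then transcribed together but cut out one at a time. ERH and the SAFB proteins are partners of the Microprocessor that help in the cutting of poor hairpins that lie beside good ones. The mir-99/100, let-7 and mir-125 families occur together in such clusters in most animals. In blood, miR-125a, miR-125b, miR-99a, miR-99b, miR-100 and let-7e are known for high levels in haematopoietic stem cells, and mir-125b for driving leukaemia in mice when overexpressed. The let-7 family is known for high levels in differentiated cells.

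The mature sequences are shown because they define 3 seed families and show which entries are close enough to share reads. Each is the 5′ arm from RefSeq (build GRCm38.p6), with the seed, bases 2 to 8, in capitals. All 6 members matched a RefSeq mature miRNA.
mir-99a: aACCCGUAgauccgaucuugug
mir-99b: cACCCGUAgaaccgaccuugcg
mir-100: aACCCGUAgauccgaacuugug
mir-125a: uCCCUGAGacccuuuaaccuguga
mir-125b: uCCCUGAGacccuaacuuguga
let-7e: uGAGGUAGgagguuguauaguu

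mir-99a, mir-99b and mir-100 share a seed, as do mir-125a and mir-125b, while let-7e has the let-7 seed. Counted from 1 at the 5′ end, mir-100 differs from mir-99a by the single substitution U16A. mir-99b differs from mir-99a by A1C, U11A, U16C and U21C. mir-125a and mir-125b are 3 edits apart, with 24 and 22 bases. let-7e differs from let-7a, one of the most abundant miRNAs of these cells, by the single substitution U9G, here in capitals.
let-7a: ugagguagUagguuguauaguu
let-7e: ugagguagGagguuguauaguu

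The hairpins lie on the plus strand in GRCm38 (GENCODE M21 annotation), in the order mir-99 or mir-100, let-7, mir-125. On chromosome 17, Mir99b (chr17:17830188-17830257) and Mirlet7e (chr17:17830352-17830444) lie in an intron of Spaca6, and Mir125a (chr17:17830812-17830879) overlaps an annotated Spaca6 exon. Gaps of 94 bp and 367 bp separate these 3 hairpins, which together span 692 bp. On chromosome 16, Mir99a (chr16:77598936-77599000) lies 656 bp before Mirlet7c-1 (chr16:77599657-77599750), and Mir125b-2 (chr16:77646273-77646343) follows 46522 bp further on. All of these lie in introns of the non-coding gene Mir99ahg, and Mir125b-2 also in an exon of C130023A14Rik. On chromosome 9, Mir100 (chr9:41531425-41531504), Mirlet7a-2 (chr9:41536716-41536811) and Mir125b-1 (chr9:41581926-41582002) lie in introns of the non-coding genes 3110039I08Rik and Gm49317, with gaps of 5211 bp and 45114 bp. Mir125b-1 also overlaps an exon of Gm28119.

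The entry mir-125b is taken to sum the 2 gene copies on chromosomes 9 and 16, whose mature sequence is the same, so its copies cannot be told apart. The entries let-7a and let-7c are likewise taken to sum all gene copies of their names. Only the chromosome 17 cluster therefore has an entry of its own for each hairpin. The hairpins of its let-7e and mir-125a are given because these neighbours differed most in response. Both are RefSeq hairpins, with the 5′ arm in capitals, of 93 and 68 bases.
Mirlet7e: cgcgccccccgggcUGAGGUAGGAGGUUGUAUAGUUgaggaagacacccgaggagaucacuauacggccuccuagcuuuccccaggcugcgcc
Mir125a: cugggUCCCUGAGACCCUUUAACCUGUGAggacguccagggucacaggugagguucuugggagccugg

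Libraries held 2699323 to 4470073 miRNA counts, and 4 synthetic spike-in RNAs took 0.165% to 0.366% of all counts. Levels are given as CPM, which are counts relative to a library's miRNA total after scaling by the trimmed mean of M-values (TMM). Reads of different miRNAs are ligated and copied with different efficiency, so ratios between miRNAs describe reads, not molecules. Log2 fold changes, their standard errors (SE) and adjusted p-values come from the quasi-likelihood test of edgeR over the 273 tested miRNAs, with Benjamini-Hochberg adjustment. A miRNA was called at an adjusted p under 0.05. Against control, 153 miRNAs were called in SAFB (84 higher, 69 lower) and 147 in ERH (72 higher, 75 lower), and 108 were called between ERH and SAFB (65 higher, 43 lower). The median log2 fold change over all tested miRNAs was 0.0083, -0.061 and 0.042 in these comparisons. The split of calls depends on scaling. By total miRNA counts it was 90 higher and 66 lower for SAFB, 108 and 33 for ERH, and 115 and 8 for ERH against SAFB. By spike-ins it was 44 and 58, then 72 and 19, then 111 and 1. Total counts put the median over all miRNAs at 0.04, 0.24 and 0.31, and spike-ins put it at -0.23, 0.23 and 0.57. Both knockouts are compared with the same 6 control libraries.

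All 5 tested members were higher in SAFB than in control and all 5 were higher in ERH than in control. Of all miRNAs tested, 30.8% were called higher in SAFB and 26.4% in ERH. mir-99a passed the filter on low counts only through the knockout libraries, so its direction was fixed by that and it adds nothing to this count. The other 4 had at least 4 control libraries at the filter's level. mir-99a, mir-99b, mir-125a and mir-125b rose 8.82-fold to 12.3-fold in SAFB and 21.7-fold to 34.2-fold in ERH, as ratios of mean CPM. let-7e rose 1.40-fold and 1.67-fold. Against SAFB, ERH had a higher level of all 5, in a comparison where 23.8% of all miRNAs were called higher. The let-7e call there was lost in 9 of 12 omissions of a library, while the other 4 kept theirs in all 12. In each of the knockouts 47 miRNAs rose by more than 1 on the log2 scale, the 4 strong risers among them. The 6 members summed to 107.4 ± 6.24 CPM in control libraries, 377.7 ± 87.6 in SAFB libraries and 759.8 ± 87.2 in ERH libraries (SD, 6 libraries each). These sums were 0.00993%, 0.0359% and 0.0870% of miRNA counts, so the members stayed rare in every genotype.

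**Figure D1:**
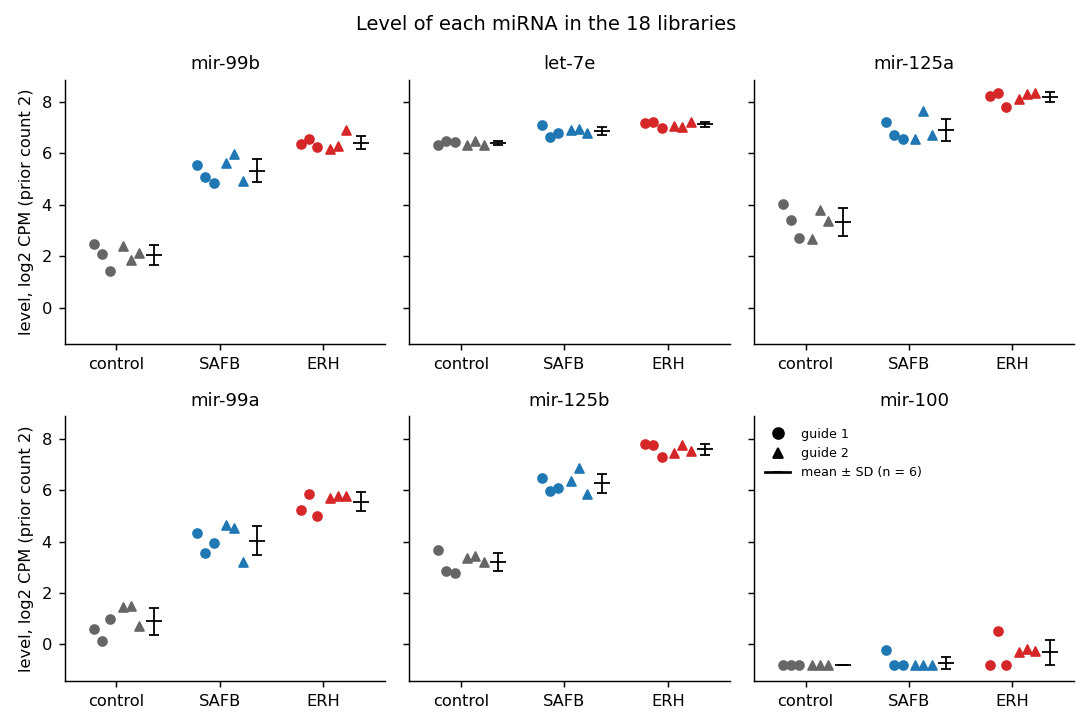
Level of each of the 6 miRNAs in the 18 libraries, as log2 CPM with a prior count of 2, by genotype. Circles are libraries of guide 1 and triangles of guide 2, and the cross with bars is the mean ± SD of 6 libraries. For mir-99b, mir-125a, mir-99a and mir-125b the 3 genotypes form separate steps, let-7e climbs by less from a higher control level, and mir-100 stays at or near the level of 0 counts.

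mir-99b is the first hairpin of the chromosome 17 cluster and a member of the mir-99/100 seed family. In control its level was 4.94, 3.69 and 2.09 CPM in the libraries of guide 1 (batches 1 to 3) and 4.68, 3.03 and 3.75 in those of guide 2, from 6 to 16 counts each. In SAFB it was 45.8, 33.5 and 28.0 CPM with guide 1 and 49.0, 62.3 and 29.9 with guide 2. In ERH it was 81.3, 92.6 and 75.9 CPM with guide 1 and 70.7, 78.4 and 118.1 with guide 2. The 3 genotypes did not overlap, and the highest ERH library was batch 3 of guide 2. Mean levels were 3.70 ± 1.05, 41.4 ± 13.3 and 86.2 ± 17.3 CPM (SD, 6 libraries each). The log2 fold change was 3.46 in SAFB (SE 0.24, edgeR adjusted p = 1.25e-11). In ERH it was 4.52 (SE 0.24, edgeR adjusted p = 6.92e-14). ERH exceeded SAFB by 1.06 (SE 0.18, edgeR adjusted p = 7.18e-05). Within batches 1, 2 and 3 that last difference was 0.67, 0.89 and 1.69, so it had the same sign in each.

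mir-125a, the last hairpin of this cluster, reached the highest level of the 6 in ERH. In SAFB it and let-7e were close, with let-7e the higher in 3 of 6 libraries. The SAFB mean of mir-125a was above that of let-7e with all libraries (124.5 against 116.4 CPM) and below it without guide 2 batch 2 (109.3 against 114.9 CPM). In control it was 15.7, 10.02 and 5.93 CPM with guide 1 and 5.76, 13.2 and 9.90 with guide 2. The SAFB libraries had 147.6, 105.3 and 93.8 CPM with guide 1 and 94.8, 200.3 and 105.2 with guide 2. The ERH libraries had 301.6, 326.8 and 223.4 CPM with guide 1 and 275.8, 312.9 and 320.9 with guide 2. The genotypes again did not overlap, although SAFB guide 2 batch 2 came close to the lowest ERH library, guide 1 batch 3. Mean levels were 10.1 ± 3.95, 124.5 ± 42.1 and 293.6 ± 38.8 CPM (SD, 6 libraries each). It rose by 3.61 on the log2 scale in SAFB (SE 0.23, edgeR adjusted p = 3.6e-12). The rise in ERH was 4.85 (SE 0.24, edgeR adjusted p = 2.96e-14). The ERH level exceeded that of SAFB by 1.24 (SE 0.19, edgeR adjusted p = 1.76e-05). Within the 3 batches the SAFB difference was 3.55, 3.59 and 3.60, and the ERH difference 4.83, 4.73 and 5.02.

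let-7e, the middle hairpin, behaved differently from both neighbours. It had the highest control level of the 6, with 78.7, 88.3 and 85.4 CPM in guide 1 and 79.9, 87.8 and 80.0 in guide 2. The SAFB libraries were at 136.6, 97.7 and 110.8 CPM with guide 1 and 119.7, 123.9 and 109.9 with guide 2. The ERH libraries were at 146.2, 147.4 and 126.5 CPM with guide 1 and 134.9, 129.6 and 149.6 with guide 2. Every knockout library lay above every control library, but SAFB and ERH overlapped, with SAFB guide 1 batch 1 above 3 ERH libraries. Mean levels were 83.4 ± 4.32, 116.4 ± 13.4 and 139.0 ± 9.95 CPM (SD, 6 libraries each). The log2 fold change was 0.48 in SAFB (SE 0.093, edgeR adjusted p = 0.000125). For ERH the value was 0.74 (SE 0.093, edgeR adjusted p = 3.63e-07). Scaled by spike-ins, the SAFB difference was 0.24 and was not called (edgeR adjusted p = 0.457), while the ERH difference was 1.02 (adjusted p = 0.000222).

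The difference of 0.26 in let-7e between ERH and SAFB was near the threshold (SE 0.092, edgeR adjusted p = 0.0308). It was called without SAFB guide 1 batch 1 (0.30), ERH guide 1 batch 3 (0.27) or ERH guide 2 batch 1 (0.26), and was lost without any other single library of these 2 genotypes. The lost values were 0.19, 0.23, 0.25, 0.24 and 0.25 without SAFB guide 1 batches 2 and 3 and guide 2 batches 1 to 3. They were 0.23, 0.21, 0.25 and 0.23 without ERH guide 1 batches 1 and 2 and guide 2 batches 2 and 3. Across all 12 omissions the edgeR adjusted p ran from 0.0148 to 0.125. None of the 4 comparisons of a single ERH population with a single SAFB population called it, with differences from 0.23 to 0.29 and a highest adjusted p of 0.278. Scaling by total counts gave 0.52 and by spike-ins 0.78, both called (edgeR adjusted p = 0.000143 and 0.00605).

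The ratio of counts between hairpins of a cluster needs no scaling between libraries. Ratios are log2 values with 0.5 added to each count, compared by exact two-sided permutation tests over 6 against 6 libraries. The smallest p that 924 arrangements allow is 0.0022, and adjusted values are over 15 tests. The ratio of mir-125a to mir-99b, the outer hairpins, was 1.37 ± 0.59 in control libraries, 1.59 ± 0.32 in SAFB libraries and 1.78 ± 0.23 in ERH libraries (SD, 6 libraries each). In linear terms these are 2.58, 3.00 and 3.43 reads of mir-125a per read of mir-99b. No difference passed the test. SAFB minus control was 0.22 (exact p = 0.498, adjusted 0.533), ERH minus control 0.41 (exact p = 0.121, adjusted 0.182) and ERH minus SAFB 0.19 (exact p = 0.279, adjusted 0.322). When a population was left out, these differences ran from 0.093 to 0.35, from 0.28 to 0.54 and from 0.086 to 0.30, and none passed. The control libraries hold 6 to 16 counts of mir-99b, and their ratios ran from 0.29 to 2.06, which limits the size of difference that this ratio could show.

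Both ratios with let-7e changed. For let-7e to mir-99b the libraries of control guide 1 were at 3.95, 4.53 and 5.24 and those of guide 2 at 4.04, 4.77 and 4.37. In SAFB this ratio was 1.57, 1.54 and 1.98 with guide 1 and 1.29, 0.99 and 1.88 with guide 2. In ERH it was 0.85, 0.67 and 0.74 with guide 1 and 0.93, 0.72 and 0.34 with guide 2. No genotype overlapped another. let-7e thus had 22.4 reads per read of mir-99b in control, 2.91 in SAFB and 1.63 in ERH. SAFB was lower than control by a log2 difference of -2.94, ERH by -3.78, and ERH was lower than SAFB by -0.83 (exact p = 0.0022 each, the smallest possible, adjusted 0.0041).

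The ratio of mir-125a to let-7e was -3.12 ± 0.59 in control libraries, 0.045 ± 0.36 in SAFB libraries and 1.07 ± 0.15 in ERH libraries (SD, 6 libraries each). mir-125a was at 0.115 reads per read of let-7e in control, at 1.03 in SAFB and at 2.10 in ERH, so the order of these neighbours turned round between control and ERH. The differences were 3.16 for SAFB, 4.19 for ERH and 1.02 for ERH against SAFB, with no overlap of groups (exact p = 0.0022 each, adjusted 0.0041). Within batches 1 to 3 the SAFB difference was 2.92, 3.32 and 3.25, and the ERH difference 4.07, 4.13 and 4.36.

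**Figure D2:**
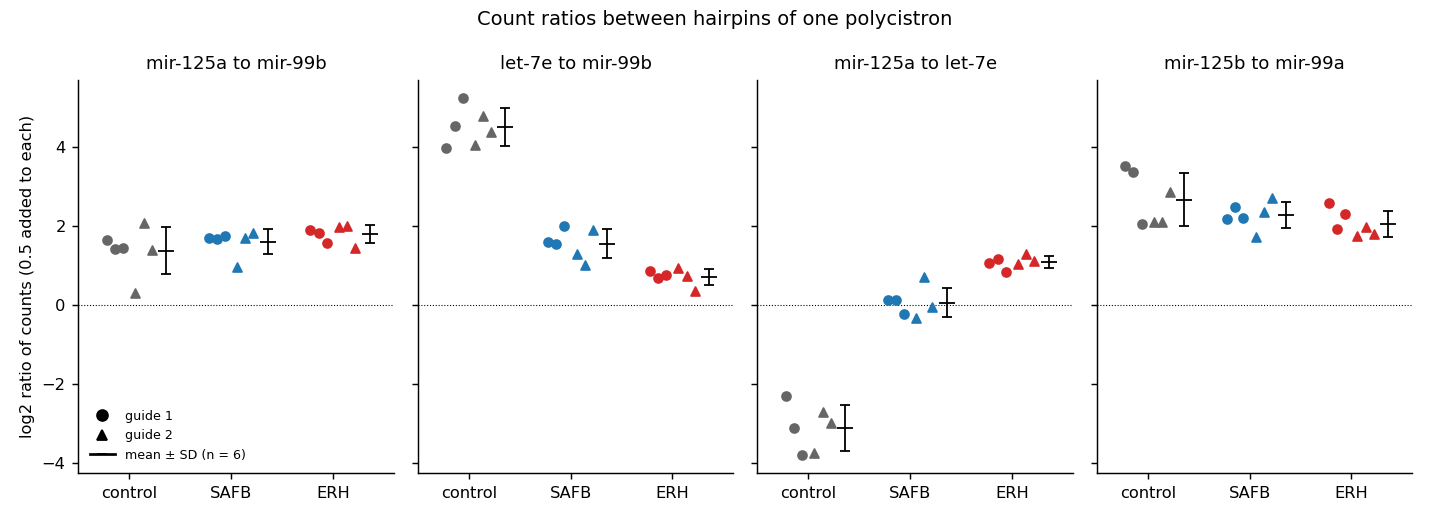
Log2 ratio of counts between hairpins of a cluster, with 0.5 added to each count, in the 18 libraries by genotype. Circles are guide 1, triangles guide 2, and the cross with bars is the mean ± SD of 6 libraries. The ratios of mir-125a to mir-99b and of mir-125b to mir-99a overlap between genotypes, whereas both ratios that contain let-7e form 3 separate steps.

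Fold changes and added reads ranked the members differently. From control to SAFB, let-7e gained 33.1 ± 5.75 CPM and mir-99b gained 37.7 ± 5.46 (SE, 6 against 6 libraries). From control to ERH the gains were 55.7 ± 4.43 CPM for let-7e and 82.5 ± 7.07 for mir-99b. mir-125a gained 114.4 ± 17.3 CPM in SAFB and 283.5 ± 15.9 in ERH, the largest gains of the 6. With TMM, the small fold of let-7e thus stands beside a gain in reads that was close to that of mir-99b in SAFB and lower in ERH. This depends on scaling. Per 1000 spike-in counts let-7e gained 5.85 ± 5.17 and mir-99b 12.3 ± 1.78 in SAFB, where the let-7e rise was not called, and 34.0 ± 7.98 against 40.2 ± 5.01 in ERH (SE). By total counts the gains were 33.7 and 35.8 CPM in SAFB and 81.8 and 95.5 CPM in ERH. These gains are levels of different miRNAs, and no test was made between them.

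**Figure D3:**
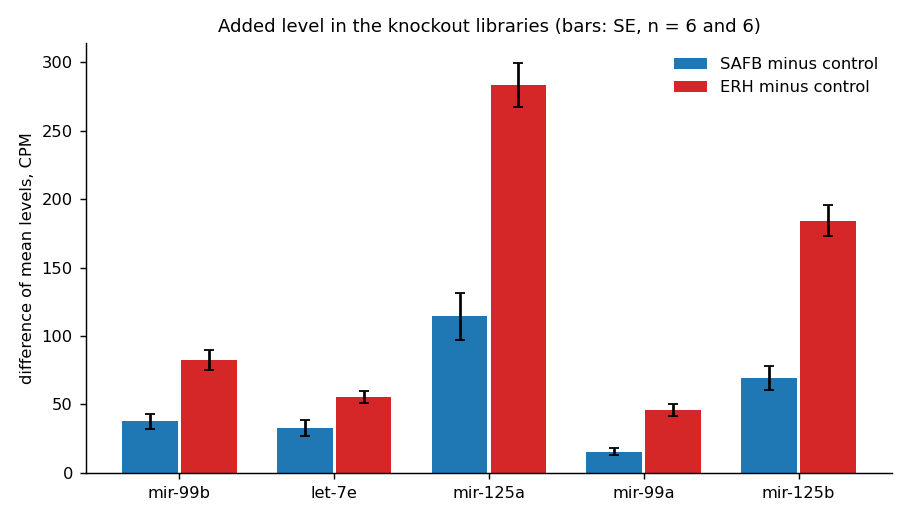
Difference of mean level from control in CPM, for the 5 tested miRNAs, with SAFB minus control in blue and ERH minus control in red. Bars are the SE of the difference over 6 and 6 libraries, and the axis starts at 0. With this TMM scaling the let-7e bar is close to that of mir-99b in SAFB and lower in ERH, and mir-125a has the tallest bars.

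The let-7e entry differs by 1 base from let-7a, which stood at 35633 ± 1622 CPM in control libraries, 32940 ± 1953 in SAFB libraries and 29642 ± 2347 in ERH libraries. Per 100 reads of let-7a there were 0.234, 0.355 and 0.473 reads of let-7e. Misread or misassigned reads of let-7a and the other let-7 miRNAs could add to the let-7e entry, and their part in its level was not tested. The other let-7 miRNAs summed to 259933 ± 10041 CPM in control, to 216079 ± 9850 in SAFB and to 191352 ± 11643 in ERH (SD, 6 libraries each). As a share that needs no scaling, let-7e made up 0.0321% of all let-7 counts in control, 0.0540% in SAFB and 0.0729% in ERH, with ranges of 0.0292% to 0.0340%, 0.0439% to 0.0649% and 0.0643% to 0.0845%. The knockout shares did not overlap those of control. The share also moves with its denominator, in which let-7f fell from 80472 CPM in control to 50364 in SAFB and 45312 in ERH. mir-98 was not part of that denominator.

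mir-99a, from the chromosome 16 cluster, was the rarest of the tested members. Its log2 fold change was the highest of them by value, but within its SE of that of mir-125a in both knockouts. In control it had 3, 2 and 4 counts with guide 1 and 6, 6 and 4 with guide 2, a mean of 1.39 ± 0.697 CPM (SD, n = 6). In SAFB its level was 19.4, 11.2 and 14.7 CPM with guide 1 and 24.6, 22.8 and 8.60 with guide 2. The ERH levels were 37.2, 57.7 and 31.0 CPM with guide 1 and 51.5, 54.3 and 53.5 with guide 2. The genotypes did not overlap. No control library reached the level of the filter on low counts (2.86 CPM), so mir-99a was tested only because the knockout libraries were above it, and its call in that direction was bound to that. Its log2 fold change was 3.63 in SAFB (SE 0.34, edgeR adjusted p = 2.78e-09), and that in ERH was 5.13 (SE 0.32, edgeR adjusted p = 1.75e-12). The SE is the widest of the 5, and single pairs of populations gave 3.07 to 4.29 in SAFB and 4.54 to 5.80 in ERH. ERH exceeded SAFB by 1.50 (SE 0.23, edgeR adjusted p = 1.76e-05).

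mir-125b, which is taken to be counted over its copies on chromosomes 9 and 16, shares its seed with mir-125a. In control it was 12.04, 6.59 and 6.28 CPM with guide 1 and 9.71, 10.2 and 8.56 with guide 2. Its SAFB levels were 86.9, 62.5 and 67.2 CPM with guide 1 and 81.6, 115.9 and 56.9 with guide 2. In ERH it was 220.0, 216.6 and 153.5 CPM with guide 1 and 172.1, 213.2 and 183.8 with guide 2. The genotypes did not overlap, and the library highest in SAFB, guide 2 batch 2, was also the highest there for mir-125a and mir-99b. Mean levels were 8.90 ± 2.22, 78.5 ± 21.6 and 193.2 ± 27.5 CPM (SD, 6 libraries each). It rose by 3.14 on the log2 scale in SAFB (SE 0.19, edgeR adjusted p = 1.56e-12). The ERH rise was 4.44 (SE 0.19, edgeR adjusted p = 3.65e-15), which exceeded that of SAFB by 1.30 (SE 0.16, edgeR adjusted p = 1.16e-06).

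The ratio of mir-125b to mir-99a, the outer hairpins of the chromosome 16 cluster, was 2.65 ± 0.67 in control libraries, 2.26 ± 0.33 in SAFB libraries and 2.04 ± 0.32 in ERH libraries (log2, SD, n = 6 each). Neither the SAFB difference of -0.39 (exact permutation p = 0.234, adjusted 0.319) nor the ERH difference of -0.61 (exact p = 0.0801, adjusted 0.133) passed the test. The difference between ERH and SAFB was -0.22 (exact permutation p = 0.268, adjusted 0.322). When a population was left out, the SAFB difference ran from -0.70 to -0.077 and the ERH difference from -0.92 to -0.30. That between ERH and SAFB ran from -0.43 to -0.0052, and none passed. As mir-125b has a second source on chromosome 9, this ratio is not of 1 transcript.

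mir-100, the first hairpin of the chromosome 9 cluster, was close to undetected. It had 7 counts over all 18 libraries and none in 13 of them. Control libraries had 0 counts, which with an upper limit of 3 counts allows up to 0.791 to 1.14 CPM, depending on the library. SAFB guide 1 batch 1 had 1 count, ERH guide 1 batch 2 had 3, and the 3 libraries of ERH guide 2 had 1 each. It did not pass the filter and was not tested. Since mir-100 differs from mir-99a at 1 base, and mir-99a had up to 215 counts in ERH, these few counts cannot be told from misassigned mir-99a reads. The log2 ratio of mir-125b to mir-100 is set by the 0.5 added to counts of 0. It moved by 3.09 from control to SAFB, by 3.37 to ERH (exact permutation adjusted p = 0.0041 each) and by 0.27 from SAFB to ERH (adjusted p = 0.623), and is not read further.

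The middle hairpins of the clusters on chromosomes 16 and 9 belong to let-7c and let-7a. Unlike mir-99a and mir-125b, neither was called higher than control in a knockout under any of the 4 scalings. let-7c was 35083 ± 1837 CPM in control libraries, 30544 ± 3942 in SAFB libraries and 26327 ± 3144 in ERH libraries, a log2 change of -0.20 in SAFB and of -0.41 in ERH (edgeR adjusted p = 0.0416 and 0.000139). let-7a changed by -0.11 in SAFB, which was not called (edgeR adjusted p = 0.0892), and by -0.27 in ERH (adjusted p = 0.000281). The SAFB call of let-7c was lost with DESeq2 size factors (-0.15, edgeR adjusted p = 0.0933) and spike-ins (-0.46, adjusted p = 0.0787). Scaled by total counts or spike-ins, neither let-7c nor let-7a was called in ERH, at -0.11 and -0.12 for let-7c and 0.037 and 0.025 for let-7a. Both entries are taken to sum other gene copies outside these clusters, so the copies beside mir-99a and mir-100 cannot be read from them. Of 9 tested other let-7 miRNAs out of 10 listed, 5 fell and none rose in SAFB (median -0.20), and 9 fell in ERH (median -0.34). This list counts mir-98, which fell the most, by a log2 change of -2.39 in SAFB and -2.81 in ERH. By total counts 5 fell in SAFB and 2 in ERH (medians -0.16 and -0.043), by spike-ins 3 and 2 (medians -0.46 and -0.044), and none rose. let-7e was the one let-7 entry called higher with TMM.

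**Figure D4:**
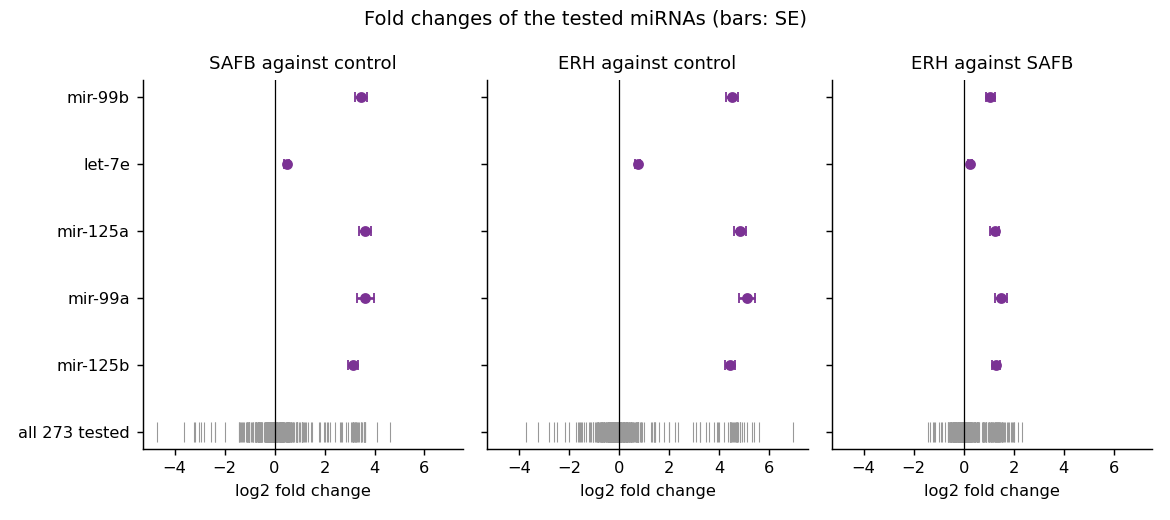
Log2 fold change with SE of the 5 tested miRNAs in SAFB against control, ERH against control and ERH against SAFB, above grey ticks for all 273 tested miRNAs. mir-99b, mir-125a, mir-99a and mir-125b lie in the group of ticks at the right end of both knockout panels, and let-7e lies near the bulk of miRNAs.

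Among the 273 fold changes ordered from the highest, mir-99a was at place 3 in SAFB and 5 in ERH, mir-125a at 5 and 8, mir-99b at 10 and 20, and mir-125b at 20 and 24. let-7e was at place 82 and 59. The order of the levels changed with genotype. In control it was let-7e, mir-125a, mir-125b, mir-99b and mir-99a from high to low, where mir-125a overlapped mir-125b and mir-99b overlapped mir-99a. By mean level in SAFB it was mir-125a, let-7e, mir-125b, mir-99b and mir-99a, and each neighbour overlapped the next except mir-99b and mir-99a. In ERH it was mir-125a, mir-125b, let-7e, mir-99b and mir-99a, and no neighbours overlapped. By seed, the mir-125 family summed to 19.0 ± 5.69, 203.0 ± 61.9 and 486.8 ± 63.0 CPM and the mir-99/100 family to 5.09 ± 1.19, 58.3 ± 19.1 and 134.0 ± 23.8 CPM in control, SAFB and ERH (SD, 6 libraries each).

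With TMM, no member was called between guide 2 and guide 1 in any genotype. By edgeR the share of all miRNAs called between guides was 0% for control, 0% for SAFB and 0.366% for ERH, with 7, 10 and 18 of 273 at an unadjusted p under 0.05. Scaled by spike-ins, guide 2 differed from guide 1 in 96 miRNAs within control and in 110 within ERH, mir-99a among the latter (0.92, edgeR adjusted p = 0.0419). With TMM, the largest difference of a member between guides was 0.92 for mir-99a in control (edgeR adjusted p = 0.969), where it had 2 to 6 counts. By spike-ins it was 1.56 there (adjusted p = 0.0719). In all 4 pairings of a knockout population with a control population, mir-99b rose by 3.21 to 3.68 in SAFB and 4.43 to 4.61 in ERH, and mir-125a by 3.44 to 3.79 and 4.73 to 4.97. mir-125b rose by 2.93 to 3.34 and 4.32 to 4.56, and let-7e by 0.45 to 0.51 and 0.71 to 0.76, all called.

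Across the 18 libraries the log2 levels of the 5 tested members correlated with each other at Pearson's r from 0.941 to 0.990. These values are descriptions over libraries that share their genotype steps. After the mean of each population was taken off, r ran from 0.145 between mir-99a and mir-125a to 0.734 between mir-125a and mir-125b, and was 0.532 between mir-99b and mir-125a of the chromosome 17 cluster. Among the 149 other miRNAs that averaged 100 counts or more, mir-10b (0.986), mir-10a (0.976) and mir-342 (0.966) were most like mir-99a. For mir-99b they were mir-183 (0.981), mir-182 (0.980) and mir-342 (0.977), for mir-125a mir-182 (0.986), mir-342 (0.983) and mir-196a (0.978), and for mir-125b mir-10a (0.985), mir-182 (0.983) and mir-342 (0.981). For let-7e they were mir-30a (0.953), mir-183 (0.946) and mir-182 (0.944). With population means taken off, these values were lower, from 0.345 for let-7e with mir-182 to 0.846 for mir-99a with mir-10b. mir-10a, mir-10b and mir-196a lie in the Hox gene clusters, and mir-182 and mir-183 form a cluster of their own.

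Other miRNAs known for high levels in blood stem and progenitor cells did not all move with the members. Of 11 listed, 8 were tested, and 5 rose and 1 fell in SAFB (median 0.71), while 5 rose and 2 fell in ERH (median 1.06). The risers include mir-181c in both knockouts. Its control level of 1.40 to 3.96 CPM had a median of 2.39, below the filter's level of 2.86 CPM. It was tested through the knockout libraries and adds nothing to these counts. mir-10a rose by 3.46 and 5.00 on the log2 scale and mir-196b by 3.30 and 4.59, while mir-542, at 818 CPM in control, rose by 0.24 and 0.67. mir-146b, the most abundant of the list at 5617 ± 468 CPM in control, changed by 0.10 in SAFB, not called (edgeR adjusted p = 0.277), and by -0.43 in ERH (adjusted p = 3.47e-05), a call lost by total counts (-0.13) and spike-ins (-0.17). The SAFB faller was mir-146a, at -0.54 (edgeR adjusted p = 0.000338), called lower under each scaling. Its ERH change of -0.26 was not called (edgeR adjusted p = 0.0571). The other ERH faller, mir-155, changed by -0.38 (edgeR adjusted p = 8.65e-05), a call lost by total counts (-0.070) and spike-ins (-0.097). Spike-in scaling left 3 risers and 1 faller of the list in SAFB, where mir-542 was at -0.047, and 5 and 0 in ERH.

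Markers of other cell types were read in the same libraries, and their part in the rise of the members was not tested. mir-142a, a defining miRNA of blood cells, stood at 145243, 139106 and 123734 CPM in control, SAFB and ERH. Of 6 tested lymphoid and blood miRNAs, 1 rose (0 by spike-ins) and 3 fell in SAFB, and 1 rose and 5 fell in ERH, where the fallers were 2 by total counts and 0 by spike-ins. mir-223, known from myeloid cells, was 9611 ± 2646 CPM in control libraries, 17414 ± 2247 in SAFB libraries and 9214 ± 2114 in ERH libraries (SD, 6 libraries each). Of 7 tested neural miRNAs, 5 rose and 1 fell in each knockout (in ERH none fell by total counts or spike-ins, and in SAFB 4 rose by spike-ins), and the 8 listed summed to 386 to 548 CPM in control, 571 to 778 in SAFB and 980 to 2224 in ERH. For mir-129 and mir-153, both among the risers, no control library reached the level of the filter on low counts (2.86 CPM). They were tested only through knockout libraries and add nothing to these counts. Of the neural miRNAs, mir-9 rose by 2.87 in SAFB and 4.85 in ERH on the log2 scale, and mir-218 by 3.27 and 5.30. The faller, mir-219a, changed by -0.40 and -0.33. mir-124, which defines neurons, had no counts in control and at most 6 in any library. Of 9 tested epithelial miRNAs, 7 rose in SAFB (4 by spike-ins) and 4 in ERH (6 by total counts), and the 11 listed summed to 157 to 212, 281 to 393 and 348 to 468 CPM. The risers mir-96 and mir-375 also reached 2.86 CPM in no control library, so they were tested only through knockout libraries and add nothing to these counts. The 4 Hox cluster miRNAs all rose in both knockouts under each scaling, from a sum of 41.2 to 96.0 CPM in control to 441 to 876 in SAFB and 1392 to 2480 in ERH. The 2 erythroid miRNAs had at most 6 counts in any library. The 5 muscle miRNAs summed to at most 6.40 CPM, with mir-133b and mir-206 at 0. Fibroblast miRNAs summed to 39.4 to 58.6 CPM in control, 37.5 to 64.0 in SAFB and 39.6 to 62.1 in ERH, with 1 of 3 tested higher in SAFB (0 by spike-ins) and 0 in ERH (1 by total counts). mir-122, known from liver, averaged 6.78, 11.6 and 17.1 CPM and was called higher in ERH.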

How the data were processed

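Small RNA of 18 Baf3 libraries was counted by the authors. The deposited values are raw, whole-number read counts per miRNA precursor, with 4 spike-ins. Per the labels' protocols, Trizol RNA was mixed with spike-ins before library preparation with the QIAseq miRNA kit. SAMtools is named in the submitters' processing notes. The aligner, genome build, use of molecular identifiers and rule for reads matching more than 1 precursor are not given in the sources used here. The member entries name no arm or gene copy, so an entry is taken to sum both arms of a hairpin and every gene copy. Entries of close sequence may share reads. Limits from counts of 0 cover counting error only.

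Spike-ins were left out of library sizes. edgeR 4.0.16 (R 4.3.3, limma 3.58.1) kept 273 of 1006 precursors with filterByExpr at a minimum count of 10 by population. It scaled by TMM and fitted 1 mean per genotype to the counts of all 18 libraries. The SE is the log2 fold change divided by the square root of F. The 2 guides were compared in a fit with 1 mean per population. Log2 CPM used a prior count of 2. Ratios added 0.5 counts. On simulated counts for the SAFB comparison, with 243 miRNAs tested, 88.1% of those changed by 1 on the log2 scale and 97.8% of those changed by 2 were called, and 5.75% of calls were false.

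Genotype, guide and batch came from the labels. None was treated as a duplicate, since the chi-square per degree of freedom between libraries of 1 population was 27.5 at the lowest and 157.1 at the highest. The labelled batch is taken to pair libraries across genotypes. The mean correlation of library deviations from their population's mean was 0.028 over 45 pairs of the same batch and -0.014 over 90 pairs of different batches.

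Named miRNAs were the 6 members, let-7a and let-7c as other hairpins of their clusters, and for each tested member the 3 most correlated miRNAs averaging 100 counts or more. Up to 4 members in each direction of the let-7 and of the stem and progenitor lists were also named. Members and lists were chosen with earlier results of these data known. Marker miRNAs singled out were chosen after their values were seen. Alternatives were other scalings (DESeq2 size factors, total counts, spike-ins), no filter, the batch block, DESeq2 1.42.0, a pseudocount of 1, and leaving out each library or population. Scalings of the other lists, of the gains and of the guide comparisons, and the SAFB order without 1 library, were added after seeing the data. Positions come from GENCODE M21 on GRCm38, which may not be the authors' build. The RefSeq hairpins of Mir99b and Mir125b-2 were not used here.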

Additional observations from a re-analysis of the deposited data

Results flagged for a closer look

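In the log2 ratio of mir-125a to mir-99b, SAFB guide 2 batch 1 lay apart from the other 5 SAFB libraries, at 0.95 against 1.65 to 1.81. Its gap to the next library was 0.813 of the group's range, above the 95% critical value of Dixon's test. It was the only such case among 27 groups of 6 libraries, and chance gives about 1 in 20.

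The change from control differed between the knockouts for all 5 tested members. Of all miRNAs tested, 23.8% were called higher in ERH than in SAFB, and the split of calls depends on scaling, as given above. ERH minus SAFB was 1.06 for mir-99b, 1.24 for mir-125a, 1.30 for mir-125b, 1.50 for mir-99a and 0.26 for let-7e on the log2 scale, by the same edgeR test. The let-7e value is lost when most single libraries are left out, as given above. The ratios that contain let-7e also differed, by -0.83 for let-7e to mir-99b and by 1.02 for mir-125a to let-7e.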

How the results depend on the processing

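mir-99b, mir-125a and mir-125b kept their direction and their call in all 3 genotype comparisons under every alternative run. mir-99a did so too, but its direction against control was fixed by the filter, so that is no sign of stability. let-7e kept its direction in all of them. It lost its call for SAFB against control under spike-in scaling, as given above. For ERH against SAFB it lost its call without the filter (0.23, edgeR adjusted p = 0.248), in 9 of 12 omissions of a library and in 4 of 4 omissions of a population, where the difference ran from 0.17 to 0.25. Without the filter 726 miRNAs are tested, and an omitted population leaves fewer libraries. Spike-in scaling lowered the count of calls for ERH against control from 147 to 91. Chosen after seeing the data, spike-in scaling of the guide comparisons gave 96 calls within control and 110 within ERH, where 1 member was called, mir-99a at 0.92 (edgeR adjusted p = 0.0419). The cause was not tested. The ratio of mir-125b to mir-100 in ERH against SAFB ran from -0.095 to 0.64 over the omissions of a population and turned sign, to -0.095 without SAFB guide 1 and -0.0043 without ERH guide 1. mir-100 counts of 0 to 3 make this ratio uninterpretable. With the batch number as a replicate block, no member changed its call, and let-7e changed by 0.48 in SAFB and 0.74 in ERH (edgeR adjusted p = 0.000192 and 8.71e-07). Permutation within batches gave every called ratio an exact adjusted p of 0.0174. Depth limits mir-100 in all genotypes and mir-99a and mir-99b in control.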
